A study of Spirodela polyrhiza and Pistia stratiotes and Colocasia esculenta with 79 samples.

Results

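In the duckweed Spirodela polyrhiza, 200 transcripts kept the most even level over 7 dissected regions of the plant body. They were chosen from the authors' table of transcript abundances, given as TPM (a length-corrected share of the library, set so that every library has the same total). Of 16332 transcripts in the table, 7539 averaged at least 20 TPM over all 28 libraries and could be chosen. For each of these, log2(TPM + 1) was averaged over the libraries of a region, and the range was the highest minus the lowest of the 7 region means. The 200 with the smallest range form the set, all of them under 0.6 log2 units as the rule asks. The ranges and the region means therefore chose the members, and are given as a description without a test.

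The series covers 79 poly-A RNA libraries of 4 arum-family species, and the results concern its 28 Spirodela libraries, all of clone 9509. Each of the regions (Stipe, Tract, Node, NodeTract, LowerWall, Basal and Apical) has 4 libraries, which the labels call biological replicates. No treatment, mutant or time point is named, and the labels do not say whether libraries came from separate cultures, so each p-value measures the spread between these libraries. All pieces are of 1 clone, and how many fronds were pooled is not stated. Node and Tract carry a separate block of labels, with growth at a stated temperature and paired reads that the labels of the other 5 regions do not state. The table does not pair its identifiers with gene names, so neither the members' functions nor the regions' identity could be checked against known marker genes, and no sequence is shown.

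Duckweeds float on still water and consist of little more than a flat frond, from which daughter fronds bud at a node and stay joined by a stalk, the stipe. In plants, transcripts that vary little between organs typically serve processes that every living cell runs, such as protein synthesis, protein turnover, RNA processing and membrane traffic. Transcripts that differ between organs often serve specialised processes such as photosynthesis, transport or wall building. Measurements of gene activity are commonly scaled to transcripts held to be even, which makes it matter on which scale they are even. In bulk pieces, fewer cells of a type and less RNA per cell cannot be told apart.

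Library totals lay between 999671 and 999911 TPM. TPM carries no read depth, so the precision of single values is unknown. The 10 most abundant transcripts took a median of 10.8% of a Stipe library and between 15.6% and 19.9% in the other regions, with 27.0% in Tract replicate 1, the highest of the 28.

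The members were of intermediate abundance. Their mean over the 28 libraries ran from 20.03 to 362 TPM with a median of 58.8, against a median of 48.5 for the 7339 other eligible transcripts. Members made up 2.27% of eligible transcripts averaging 20 to 50 TPM, 2.75% of those from 50 to 100 and 4.10% of those from 100 to 400. None of the 310 transcripts at 400 TPM or more was a member, while the most abundant eligible transcript averaged 34653 TPM. Summed over the set, the members took between 15636 and 19671 TPM of a library. In the Apical region they took 1.66% of a library on average and in Stipe 1.78%, the lowest share being 1.65% in Basal. No member fell below 12.3 TPM in any library.

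The transcript with the smallest range was Sp9509d004g001580_T001, at 0.16 log2 units, or 1.11-fold between the highest and the lowest region. Its 4 Apical libraries held 419, 298, 300.4 and 253 TPM, the Basal libraries 361, 274, 331 and 221, and the LowerWall libraries 351, 313, 301 and 279. NodeTract held 317, 287, 280.1 and 284 TPM, Node 289.7, 281, 294 and 257, Tract 303, 316, 258 and 275 and Stipe 366, 298, 299.6 and 269. All 7 regions overlapped, and the first library was the highest in each region except Node and Tract. The region means ran from 281 ± 16.5 TPM in Node to 318 ± 70.7 in Apical (SD, n = 4 each).

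The next smallest ranges belonged to transcripts at lower levels. Sp9509d004g000670_T001 had a range of 0.18 log2 units, and its lowest, median and highest values over the 28 libraries were 18.8, 32.1 and 41.7 TPM. Sp9509d005g006980_T001 had a range of 0.19 and values of 21.1, 29.1 and 34.9 TPM. For Sp9509d020g002580_T001 the range was 0.20 and the values 33.3, 51.0 and 72.0 TPM. In all 3 the highest single library exceeded the lowest by 1.65 to 2.22 times. Means of 4 libraries vary less than single libraries, and these transcripts were chosen for even means, so the contrast is a description. Sp9509d017g001330_T003 and Sp9509d005g001390_T001 had ranges of 0.20 and 0.22 at means of 37.0 and 34.4 TPM.

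Over all 200 members the range had a median of 0.43 log2 units and ended at 0.49, against a median of 1.48 for the other eligible transcripts. The limit did not fall at a gap in the ranges. The last members were Sp9509d001g006300_T001, Sp9509d003g000770_T001 and Sp9509d012g000830_T002, with ranges of 0.4925, 0.4926 and 0.4935. Just outside stood Sp9509d006g001620_T001 at 0.4955, Sp9509d009g002900_T001 at 0.4959 and Sp9509d020g004420_T001 at 0.4964. Leaving out any single library kept between 171 and 197 of the members in the set, and 67 of the 200 stayed in whichever library was left out. Without the Stipe region 103 members stayed, without Node 121, and without any 1 of the other regions between 145 and 164.

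The most abundant members had larger ranges, with 1 exception. Sp9509d012g003610_T001, at a mean of 362 TPM, had a range of 0.48 and values from 234 to 461 TPM around a median of 363. Sp9509d003g010840_T001 averaged 361 TPM with a range of 0.46, and Sp9509d001g003530_T001 359.7 TPM with 0.45. Sp9509d014g006710_T001 averaged 352 TPM with a range of only 0.26. Its Stipe libraries nevertheless held 668, 303, 289 and 251 TPM, the first standing far above the other three, and its LowerWall libraries 541, 354, 343 and 261.

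**Figure D1:**
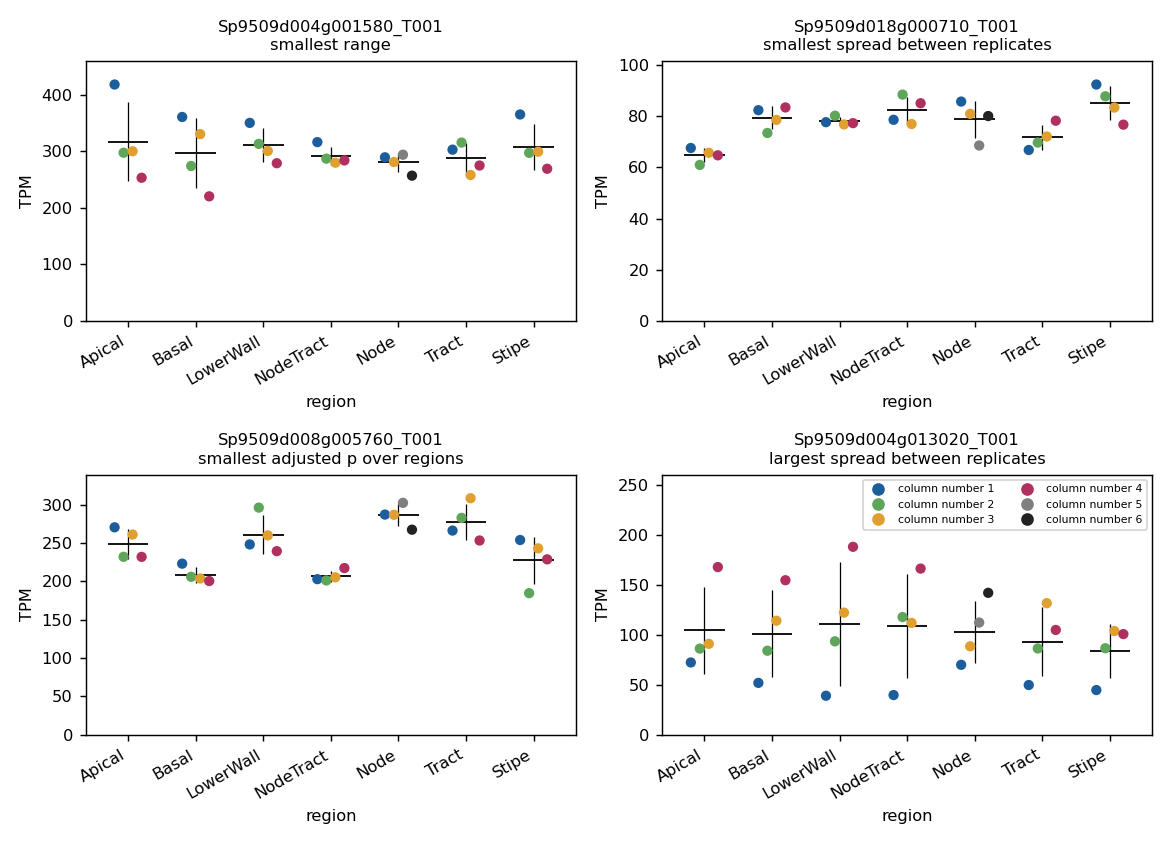
TPM (vertical axes, from 0) of 4 members in the 28 libraries by region (horizontal axes). Points are libraries coloured by column number, horizontal bars are region means and vertical lines are ± 1 SD (n = 4). Sp9509d004g001580_T001 has region means within 1.11-fold on the log2 scale, and Sp9509d004g013020_T001 has even region means with the libraries of column number 1 lowest in each region.

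The members shared a small tilt on the TPM scale. Set against its own mean over the 7 regions, the median member stood at -0.08 log2 units in Apical and -0.07 in Basal. It stood at 0.03 in LowerWall, -0.01 in NodeTract, -0.0044 in Tract, 0.06 in Stipe and 0.08 in Node. Node was the highest region for 52 members and Stipe for 43, while Basal was the lowest for 54 and Apical for 40. The median of all 15802 tested transcripts had a wider tilt between the same extremes, from -0.38 in Apical to 0.38 in Node. In Basal it stood at -0.29, in LowerWall at -0.12, in NodeTract and Tract at 0.11 each and in Stipe at -0.03.

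The scale of measurement bears on all of these values. TPM measures a share of the library, and a common alternative rescales each library so that the median transcript keeps its level (median of ratios over the 12450 transcripts above 0 in every library). Its size factors ran from 0.744 to 0.851 in Apical and from 1.25 to 1.38 in Node. Rescaling moves all transcripts of a library alike, and the members were chosen to lie near their own mean by TPM, so the size factors and the rule fix much of where the members come to lie. The median member stood at 0.25 log2 units from its own mean in Apical and at -0.30 in Node, where the median eligible transcript stood at 0.06 and -0.17. It stood at 0.14 in Basal, 0.12 in LowerWall, 0.04 in Stipe, -0.09 in NodeTract and -0.15 in Tract. A set of smallest ranges on one scale must mostly have wider ranges on another, so the median range of 0.63 after rescaling, against 0.43 by TPM, is a description of the scale and not of the transcripts. The median of the other eligible transcripts went from 1.48 to 1.43. Of the 200 transcripts with the smallest range on the rescaled values, 19 were members, so the set described here is one by TPM.

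Single members moved to different degrees. Sp9509d004g001580_T001, the most even member by TPM, had a rescaled range of 0.87, and Sp9509d016g003950_T001 and Sp9509d013g003160_T001 went from 0.36 to 1.08 and from 0.31 to 1.03. The values of Sp9509d013g003160_T001 were 94.5, 114 and 198 TPM (lowest, median and highest of 28). The ranges of Sp9509d011g004760_T004, Sp9509d011g006360_T001 and Sp9509d007g011800_T001 hardly moved, being 0.43, 0.46 and 0.48 before and 0.44, 0.46 and 0.49 after. Sp9509d011g006360_T001 held 49.8, 57.7, 63.7 and 59.9 TPM in Apical and 93.6, 81.3, 67.6 and 71.0 in Tract, without overlap, but the Tract minus Apical difference of 0.43 log2 units by TPM was -0.04 after rescaling. Among the 19 transcripts even on both scales, singled out after their values were seen, Sp9509d009g009130_T001 had ranges of 0.36 by TPM and 0.33 rescaled at a mean of 26.1 TPM. Sp9509d018g002930_T002, likewise singled out, had 0.34 and 0.41 at 127 TPM.

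**Figure D2:**
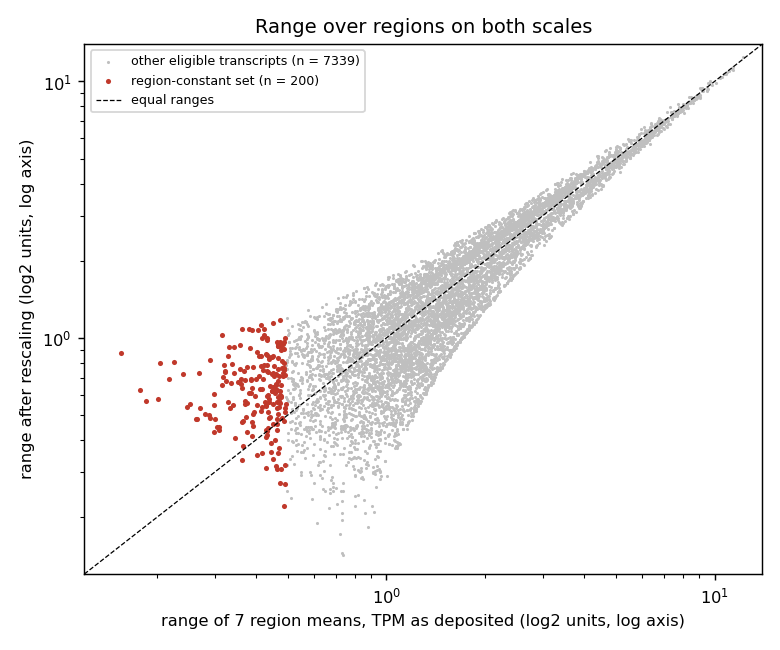
Range of the 7 region means of each eligible transcript by TPM (horizontal, log axis) and after median-of-ratios rescaling (vertical, log axis), in log2 units. The 200 members (red) end at 0.49 by TPM, and most lie above the line of equal ranges (dashed), at a median of 0.63 after rescaling.

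**Figure D3:**
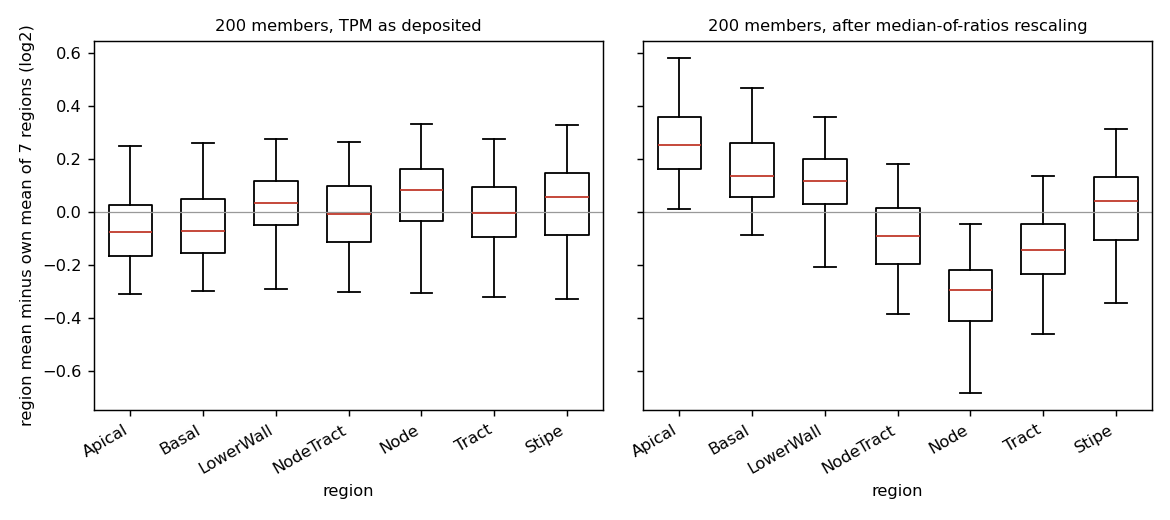
Difference of each region mean from the member's own mean of 7 regions (log2 units, vertical) by region (horizontal) for the 200 members, by TPM (left) and rescaled (right). Boxes span the quartiles with the median in red, and whiskers reach the lowest and highest member. The medians in Apical and Node are -0.08 and 0.08 by TPM and 0.25 and -0.30 rescaled, a change that the size factors of these libraries bring about.

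The spread between libraries of the same region was not used by the rule, although a wide spread makes a small range less likely. As the pooled SD of log2(TPM + 1) within regions, it had a median of 0.23 in the members, 0.26 in the next 200 transcripts by range and 0.35 in the other 7339. At 20 to 50 TPM the median was 0.23 in members and 0.33 in the others. At 50 to 100 TPM it was 0.22 and 0.34, and at 100 to 400 TPM it was 0.26 and 0.41. Members thus had the lower median spread at each of these 3 levels, and the difference was not tested.

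Sp9509d018g000710_T001 had the smallest spread, at 0.09. It held 67.6, 61.0, 65.7 and 64.7 TPM in Apical, 82.4, 73.5, 78.6 and 83.5 in Basal, 77.7, 80.2, 76.8 and 77.3 in LowerWall and 78.6, 88.5, 77.0 and 85.1 in NodeTract. Node held 85.8, 81.0, 68.6 and 80.1 TPM, Tract 66.8, 69.7, 72.1 and 78.3 and Stipe 92.4, 87.8, 83.4 and 76.7. With libraries this close, the Apical values stayed below all values of Basal, LowerWall, NodeTract, Node and Stipe, and overlapped those of Tract alone. After rescaling Node stood 0.44 log2 units lower than Apical and Stipe 0.04 higher, so this order holds by TPM. The range of this transcript was 0.39 log2 units beside its spread of 0.09, and that of Sp9509d004g001580_T001 was 0.16 beside a spread of 0.20. A range of region means and a spread of single libraries are unlike measures. Setting them side by side does not say whether regions differ beyond the replicates. Sp9509d008g005760_T001, Sp9509d003g011510_T001 and Sp9509d019g001230_T001 had the next smallest spreads, all at 0.12, with ranges of 0.47, 0.39 and 0.46.

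Some members were called between regions despite their close region means. In a linear model of all 28 libraries (limma moderated F over the 7 regions, adjusted p under 0.05 by Benjamini-Hochberg over all transcripts tested), 31 of the 200 members were called, against 88% of the 15802 transcripts tested. As most transcripts were called, the adjustment changed little, and 33 members had an unadjusted p under 0.05 in this F test. It thus gives little protection against false calls within a set chosen for close means. In at least 1 of the 21 pairs of regions 98 members were called, against 95.2% of all tested. Each pair was adjusted on its own, with no adjustment over the 21. The rule used these same means, so nothing is read from the difference in share. Without LowerWall replicate 1 the count over the regions by adjusted p was 47. On the rescaled values 127 members were called over the regions, against 84.3% of all tested, and 170 in at least 1 pair, against 92.7%. The called members had a median spread of 0.15 log2 units against 0.25 in the others. The F test sets differences between regions against the spread, and the rule kept those differences small. A smaller spread in the called members therefore follows from the rule and the test. Among the 31, the lowest region by TPM was Basal for 12, NodeTract for 9 and Apical for 7, and the highest was LowerWall, Node or Stipe for 7 each.

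Sp9509d008g005760_T001 had the smallest adjusted p over the regions. Its Basal libraries held 223, 206, 204 and 200.3 TPM and its NodeTract libraries 203, 201, 205 and 217. Against these, Node held 287, 287, 302 and 267 TPM, Tract 266, 283, 308 and 253 and LowerWall 248, 296, 259.9 and 239. Apical held 270.4, 232, 261 and 232 TPM and Stipe 254, 185, 243 and 229. Every Node, Tract and LowerWall library stood above every Basal and NodeTract library, and the largest difference, Node minus NodeTract, was 0.47 log2 units (SE 0.12) and 0.16 after rescaling, where Node minus Basal turned to -0.14. Sp9509d008g010770_T001 was highest in Apical, with 114, 108, 108 and 91.1 TPM, and lowest in Tract, with 66.8, 82.5, 89.2 and 69.7, at a Tract minus Apical difference of -0.45 (SE 0.12) by TPM and -0.92 rescaled. Sp9509d019g001230_T001 was lowest in Stipe, at 38.6, 46.4, 39.4 and 33.3 TPM, against 50.8, 56.4, 61.8 and 49.5 in LowerWall, lower on both scales. Sp9509d015g001760_T001 held 56.9, 54.4, 53.0 and 60.6 TPM in Node and 44.0, 34.3, 43.8 and 44.7 in Apical, a pair of groups that did not overlap by TPM, and its Node minus Apical difference turned from 0.43 to -0.28 log2 units on rescaling.

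A p above the threshold does not show that levels are equal, so the width of the intervals is given as a description. For each member the widest bound of the 21 pairwise 95% intervals was taken, which were not widened for the 21 comparisons or for the choice of the members. This bound was 1.71-fold in the median member and ran from 1.39-fold to 2.50-fold. All 21 intervals stayed within 1 log2 unit, that is within 2-fold, for 190 of the 200 members, where 3.89% of all transcripts tested did. On the rescaled values it was 99 members and 8.25%. The intervals lie around the region means that the rule chose to be close, so neither these counts nor the bounds are evidence of evenness. The narrowest bound, 1.39-fold, belonged to Sp9509d004g001580_T001, and the widest to Sp9509d014g002440_T001, whose libraries ranged from 49.2 to 209 TPM.

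Pair by pair, between 0 and 34 of the 200 members were called by limma's adjusted p. No member was called between Basal and Apical, where 1.48% of all transcripts were, or between Tract and Node, where 24.9% were, and at an unadjusted p under 0.05 the counts were 7 and 10. By TPM, most calls involved Apical or Basal on the low side, a direction that turned on rescaling. Node exceeded Apical in 30 members and was below it in 4 (67.2% of all transcripts called), and it exceeded Basal in 25 and was below it in 2 (66%). Stipe exceeded Apical in 23 members and was below it in 2 (55.7%), and for Basal the counts were 18 and 3 (50.6%). LowerWall was higher than Apical in 12 members and lower in none (31.4%), and higher than Basal in 12 and lower in 1 (28.5%). Tract was likewise mostly the higher region, in 10 members against 4 for Apical (54.5%) and in 15 against 1 for Basal (50%).

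Against NodeTract, called members went both ways in most pairs. NodeTract was higher than Apical in 9 members and lower in 8 (54.8% of all called), higher than Basal in 8 and lower in 5 (52.2%), and higher than LowerWall in 1 and lower in 8 (31.4%). Node exceeded NodeTract in 6 members and was lower in none (24.9%), Tract exceeded it in 8 and was lower in 4 (31%), and Stipe exceeded it in 12 and was lower in 2 (45.7%). The remaining pairs had few calls or mixed directions. Against LowerWall, Node was higher in 5 members and lower in 6 (55%), Tract higher in none and lower in 2 (24.6%), and Stipe higher in 3 and lower in 2 (37.7%). Stipe was higher than Node in 4 members and lower in 7 (56.9%), and higher than Tract in 10 and lower in 5 (44.4%).

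On the rescaled values the split of these calls turned or became one-sided in nearly every pair. Node was lower than Apical in 152 members and higher in none (59.1% of all transcripts called on that scale), and lower than Basal in 111 and higher in none (57.2%). Against Apical, 79 members were lower in NodeTract (51.6%), 80 in Tract (43.7%), 49 in Stipe (52.2%) and 11 in LowerWall (28.4%), with none higher. Against Basal, 41 were lower in NodeTract (51.2%), 55 in Tract (43.6%), 21 in Stipe (49.5%) and 4 in LowerWall (29.5%), again with none higher. Apical and Basal were the high side on this scale. The members were chosen for close means by TPM, so the size factors largely fix these directions. Nothing about the transcripts is read from these counts. Between Apical and Basal no member was called on either scale (1.91% of all on the rescaled one).

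Pairs without Apical and Basal turned in part, and the size factors bear on their directions in the same way. Against LowerWall, 98 members were lower in Node (47.6%), 28 in NodeTract (32.7%) and 31 in Tract (22%) with none higher, while Stipe was lower in 14 and higher in 1 (39.1%). Node was lower than NodeTract in 17 members and higher in none (17.2%), and Tract was lower than NodeTract in 10 and higher in 4 (34.1%). Stipe was higher than NodeTract in 23 members (47.6%), than Node in 77 (52.2%) and than Tract in 27 (45.7%), and Tract was higher than Node in 8 (19.5%), with none lower. Stipe above NodeTract and Stipe above Tract kept their main direction on both scales, as did NodeTract and Tract below LowerWall. Pairs that name the same region share its libraries.

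To measure evenness in samples that the choice had not used, each region was left out in turn, 200 transcripts were chosen on the 6 other regions, and their level was read in the region left out. This check was added after the data were seen, and the transcripts chosen shared between 103 (Stipe left out) and 164 (LowerWall left out) with the set described above. In LowerWall 193 of 200 lay within 0.5 log2 units of their mean over the other regions, against 74.5% of all transcripts eligible without that region. For Basal it was 190 against 53.3%, for Apical 187 against 47.8%, for NodeTract 187 against 64% and for Tract 184 against 68.5%. Node and Stipe were less well met, with 164 against 50.4% and 136 against 47.1%. In each of the 7 regions left out, the share was higher among the chosen transcripts than among all eligible ones, a comparison given as a description without a test. The regions were not all unlike. NodeTract names both Node and Tract, and 1.48% of all transcripts were called between Basal and Apical. A region left out may thus have had a near relative among the 6 others, and the part of this was not tested.

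By TPM the departures had a direction in some regions. In Node 155 of the 200 chosen without it were higher than their mean elsewhere, by a median of 0.21 log2 units, as was the median of all eligible transcripts at 0.21. In Stipe 132 were higher, with a median of 0.14, while the median eligible transcript stood at -0.03. In Apical 51 were higher, with a median of -0.16 against -0.33 for the eligible ones. For the same transcripts on the rescaled values the medians turned to -0.23 in Node and 0.23 in Apical, while Stipe stayed above 0 at 0.13, so the directions in Node and Apical hold by TPM alone. By TPM, at least 1 log2 unit of departure was seen in 8 of the 200 in Stipe, 1 in Node, 1 in Apical and none in the other regions. The eligible transcripts exceeded that departure in 27.4% of cases in Stipe, 19.6% in Node and 22.0% in Apical.

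**Figure D4:**
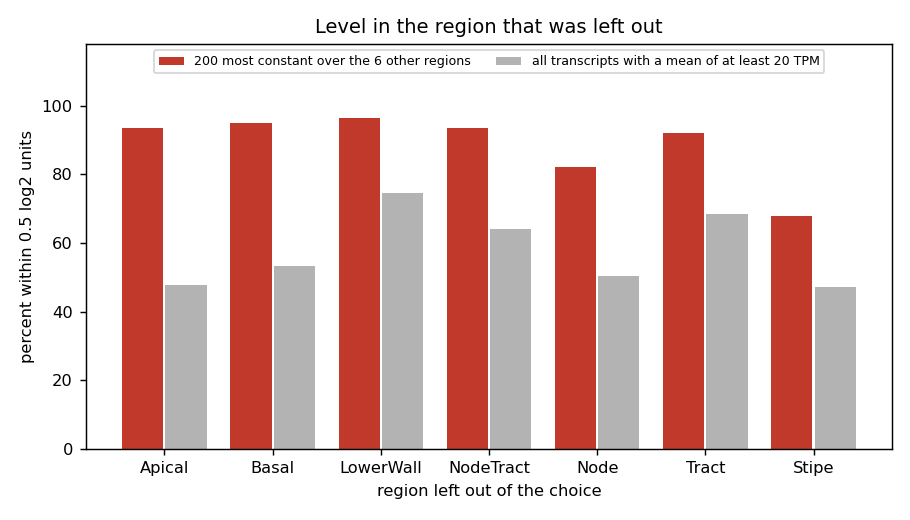
Percent of transcripts (vertical, from 0) whose mean in the region left out (horizontal) lay within 0.5 log2 units of their mean over the 6 other regions. Red bars are the 200 transcripts most even over those 6 regions and grey bars all transcripts averaging at least 20 TPM. The red bars run from 68% in Stipe to 96.5% in LowerWall.

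What variation the members had lay partly between libraries of the same region. The leading component of the deviations from the region means held 42.7% of their sum of squares in the members and 25.5% in the other eligible transcripts. On it the first library had the highest score in each of the 7 regions, from 0.07 in Node and 0.10 in Tract to 0.36 in LowerWall. The fourth had the lowest score in Apical, Basal, LowerWall and NodeTract, from -0.16 to -0.22, but not in Stipe or Tract. In Node the column numbers are 1, 3, 5 and 6, unlike those of the labels, and what a number shares between regions is not given in the labels. The region means, which chose the members, were removed before the component was taken, and its sign is arbitrary.

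**Figure D5:**
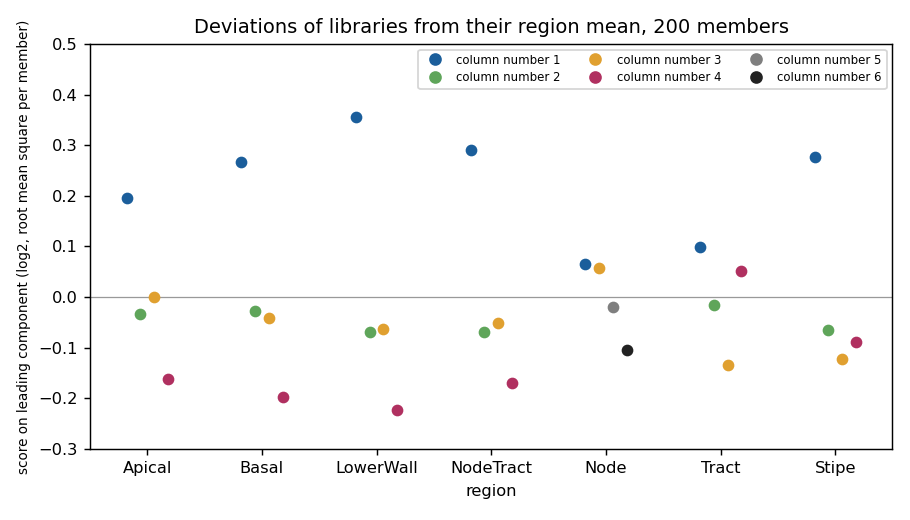
Score of each library on the leading component of the deviations from its region mean over the 200 members (vertical, log2 units as root mean square per member), by region (horizontal) and coloured by column number. The libraries of column number 1 have the highest score in each region, reaching 0.36 in LowerWall.

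The member with the largest spread, Sp9509d004g013020_T001, differed between the numbered libraries in every region. Its values were 72.1, 85.9, 90.7 and 168 TPM in Apical, 51.7, 83.8, 114 and 154 in Basal, 38.8, 93.2, 122 and 188 in LowerWall and 39.5, 117, 112 and 166 in NodeTract. Node held 69.7, 88.2, 112 and 142 TPM, Tract 49.5, 86.1, 131 and 105 and Stipe 44.5, 86.3, 104 and 100.5. The first library was the lowest in all 7 regions and the last the highest in 5, so a transcript with a range of 0.32 log2 units between regions varied 4.84-fold between single libraries. Sp9509d014g002440_T001, Sp9509d001g017620_T002 and Sp9509d012g006750_T001 came next, with spreads of 0.68, 0.57 and 0.56 and values of 49.2, 109 and 209, of 14.8, 34.2 and 54.6 and of 88.0, 159 and 281 TPM (lowest, median and highest). All 4 were lower in number 1 than in number 4 on average over the 6 regions whose columns carry label numbers, and number 1 stood at -0.91 log2 units from the mean of the 4 numbers in the first of them and at -0.77, -0.78 and -0.49 in the others. They were chosen by their spread, so no test of these differences is given.

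Over all transcripts, the 4 numbers were compared in those 24 libraries with region in the model, a test added after the scores were seen. It called 50 members, 25% of the 200 (limma moderated F, adjusted p under 0.05), against 17.1% of all 15639 transcripts tested and 25.7% of the other eligible transcripts. The share among the members was thus near that of other transcripts of like level. Of the 50, 26 were higher in number 1 than in number 4 and 24 lower, and number 1 had the largest effect in 45. Over all transcripts called, 1001 were higher in number 1 and 1679 lower, and number 1 had the largest effect in 79.4%. Sp9509d004g001580_T001, the most even between regions, was among them at 0.23 log2 units above its mean in number 1 (limma adjusted p = 0.0335). Sp9509d020g002580_T001 was 0.31 below (limma adjusted p = 0.0133). The count fell to 28 without LowerWall replicate 1 and to 32 without NodeTract replicate 1. Of the members, 1 was called both over the regions and over the numbers, and 120 were called in neither. The same overlap was not counted over all transcripts. The model over the regions held no number, so differences between numbers counted as spread in it. Nothing is therefore read from the overlap.

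Region and number each took a part of the members' variation. In the same 24 libraries region took a median of 29.2% of a member's sum of squares and number 25.3%, and in 93 of 200 members number took more than region. In the other eligible transcripts the medians were 69.2% for region and 9.002% for number, and number took more than region in 6.27%. The rule itself made the region part small. Both are shares of the same total, so a small region part raises the share of number. In log2 units the absolute difference between numbers 1 and 4 had a median of 0.22 in the members. Over all transcripts tested it was 0.29.

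The identifiers gave few shared features. Each of the 200 members had its own gene identifier, as did all 16332 transcripts of the table. The ending T001 was replaced by a higher number in 22 members, or 11%, against 8.90% of eligible transcripts and 7.12% of the table. Members came from all 20 numbered blocks that the identifiers name, with shares of eligible transcripts from 1.56% in block 9 to 4.43% in block 19. Only 4 pairs of members were neighbours in the table, among them Sp9509d003g011500_T001 with Sp9509d003g011510_T001 and Sp9509d007g010070_T001 with Sp9509d007g010080_T001.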

How the data were processed

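The authors deposited a table of TPM values for 28 Spirodela polyrhiza libraries, and the submitters' processing notes name Salmon 1.10.0 among their tools. A genome build and annotation are not stated, and TPM holds no read depth, so no counting interval is given. Tables of the other species were not used here. Columns were assigned to regions by their names. Node columns are numbered 1, 3, 5 and 6 where the labels number replicates otherwise, so they took no replicate number.

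From the deposited TPM values, log2(TPM + 1) was fitted with limma 3.58.1 in R 4.3.3 (trended variance, all 28 libraries, no block) for transcripts at 1 TPM or more in at least 4 libraries, with Benjamini-Hochberg adjustment over all tested and a threshold of 0.05. The fit was tested on simulated data in which few transcripts differed, and there the test over regions missed most changes of 0.5 log2 units. In the deposited data most transcripts were called, which makes the adjusted threshold less strict. The simulation therefore does not tell how many such changes the reported test missed. Rescaling divided each library by its median ratio to the geometric mean. Folds of log2 values are on the log2(TPM + 1) scale, which understates changes of low transcripts. Alternatives were other pseudocounts, minimum levels, measures of range, rescaling, a block and libraries left out.

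The members, lists and tests were chosen with earlier results of these data known. Named transcripts are the 6 with the smallest range, the 4 with the highest mean, the 4 smallest and 4 largest spreads within regions, the 3 whose range rescaling changed most and the 3 it changed least, the 3 on each side of the limit, and the 4 smallest adjusted p over the regions. The rule spoke of the shift by rescaling, which is the same for every transcript, so the change of range was taken. Gene lists and markers could not be tested, since identifiers carry no names here.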

Additional observations from a re-analysis of the deposited data

Results flagged for a closer look

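Among the 28 named members, 15 of 196 groups of 4 libraries held a library far from the other three, its gap taking more of the group's range than Dixon's 95% critical value allows. Over all 200 members it was 93 of 1400 groups, or 6.64%, where chance gives about 1 in 20. Apical replicate 1 and NodeTract replicate 1 stood apart 15 times each and Stipe replicate 1 11 times.

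Several of the separate libraries were high ones of column number 1. Sp9509d013g003160_T001 held 192 TPM in Basal replicate 1, 156 in NodeTract replicate 1 and 172 in Stipe replicate 1. Sp9509d014g006710_T001 held 668 TPM in Stipe replicate 1, where the next highest library held 303, and 445 TPM in the Node library of column 3. Sp9509d003g010840_T001 held 434 TPM in NodeTract replicate 1, and Sp9509d008g010770_T001 held 84.1 TPM in the Node library of column 1. In contrast, Sp9509d011g004760_T004 was low in LowerWall replicate 1, at 37.2 TPM.

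Others stood apart in libraries of other numbers. Sp9509d012g006750_T001 was high in Apical replicate 4 at 243 TPM and in Basal replicate 4 at 281 TPM. Sp9509d014g002440_T001 reached 179.9 TPM and Sp9509d007g011800_T001 28.6 TPM, both in Tract replicate 3. Low values were 18.8 TPM for Sp9509d004g000670_T001 in Stipe replicate 4, 34.3 TPM for Sp9509d015g001760_T001 in Apical replicate 2 and 55.4 TPM for Sp9509d003g000770_T001 in the Node library of column 3. The part of these libraries in the results was not tested beyond leaving each one out.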

How the results depend on the processing

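Rescaling by the median ratio moved most counts. It left 19 of the 200 members in the set, raised the members called over the regions from 31 to 127 and those called in at least 1 pair from 98 to 170, lowered those with all intervals within 1 log2 unit from 190 to 99 and raised the median range from 0.430 to 0.627. A minimum mean of 50 TPM kept 112 members, leaving out Node and Tract kept 74, leaving out Node alone 121 and Stipe alone 103. Without Node and Tract 49 members were called in at least 1 pair. A pseudocount of 0.1 and no filter moved none of these counts by over 1.5 times.

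With 1 library left out, the set kept 171 to 197 members. Between 26 and 47 members were called over the regions, the highest without LowerWall replicate 1. Between 83 and 113 were called in at least 1 pair, and 177 to 187 had all intervals within 1 log2 unit. The median spread was 0.221 to 0.236 and the median range 0.422 to 0.444. The replicate numbers called 28 to 65 members, the lowest without LowerWall replicate 1. Transcripts within 0.5 log2 units numbered 175 to 192 with Apical left out of the choice, 181 to 195 with Basal, 183 to 194 with LowerWall, 179 to 188 with NodeTract, 153 to 176 with Node, 175 to 189 with Tract and 130 to 140 with Stipe. Of 868 alternatives for the ranges of the named members, 818 stayed within the standard error, but most leave out 1 library, often of a region that is neither the highest nor the lowest and so has little effect on a range. Rescaling moved the ranges of 23 of the 28 named members.

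Replicate numbers were not used as a pairing in the main fit, although same-numbered libraries were the more alike. Deviations of same-numbered libraries correlated at a median of 0.143 (-0.0821 to 0.612), with 40 of 60 pairs of libraries exceeding 0.1. For libraries of other numbers the median was -0.0508, with 21 of 180 exceeding 0.1. Deviations sum to 0 within a region, which pushes correlations of other numbers below 0 where those of the same number are above it. The other numbers are thus no independent baseline. Without Tract the same-number median was 0.250 with 31 of 40 above 0.1. Over the members alone it was 0.349 with 49 of 60, against -0.0645 with 53 of 180 for other numbers. Of 24 libraries, 19 correlated best on average with their own number, a hint from the data and not the design. With the number as a replicate block and without Node, 51 members were called over the regions and 103 in at least 1 pair, against 23 and 62 without the block in the same libraries. With the replicate block and rescaling together, 120 and 151 were called. The cause of these changes was not tested. Because TPM holds no depth, what read depth limits is unknown.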
